A study of Rattus norvegicus with 10 samples.

Results

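Glutathione S-transferases join the tripeptide glutathione to reactive electrophiles, and their transcripts were measured here in the nasal transitional epithelium of rats given N,N-dimethyl-p-toluidine (DMPT) or vehicle. The 10 genes described are Gsta4 of the alpha class, Gstm1, Gstm2 and Gstm3 of the mu class, Gstp1 of the pi class, Gstt1 of the theta class, Gsto1 of the omega class, and the microsomal genes Mgst1, Mgst2 and Mgst3. Every probe set whose only annotated gene symbol is one of these was taken. That gave 10 probe sets, 1 per gene, of 20826 with a single symbol and 31042 tested in all, or 10 of 14217 genes. The alpha, mu, pi, theta and omega classes are soluble enzymes. The microsomal group belongs to a separate family of membrane proteins, some of whose members make leukotrienes or prostaglandins.

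The DMPT group was 5 male F344/N rats given DMPT at 120 mg/kg/day in corn oil by gavage on 5 days in a row. The vehicle group was 5 male F344/N rats given corn oil alone. Animals of both groups were 5 to 6 weeks old when the study began. The epithelium was cut out by laser capture microdissection, its RNA was amplified, and each animal had an array of its own. DMPT is an aromatic amine used to speed the setting of acrylic cements.

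Glutathione conjugation is a second-phase step in the handling of foreign compounds. The conjugate leaves the cell through ABC transporters and is trimmed by gamma-glutamyl transferase and peptidases, and the cysteine conjugate can then be acetylated to a mercapturate. Many glutathione S-transferase genes are known targets of NRF2, the transcription factor that responds to electrophiles. The nasal mucosa, which meets inhaled chemicals first and holds active cytochrome P450 enzymes, is known to express these enzymes.

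The promoters of 8 of the 10 genes were in the RefSeq promoter table (build GRCr8). Those of Gstt1 and Mgst2 were not used. The sequence TGACNNNGC, the core of the antioxidant response element to which NRF2 binds, was searched on both strands in the 300 bases around each start site. It was found in 1 of the 8 genes, Gstp1, and in 13.1% of all 27457 genes with a window of that length. The match in Gstp1, TGACTCAGC, began at position -61 from the start site. It overlaps TGACTCA, the letters bound by AP-1 factors, a motif looked up after the match was seen. TGACTCA occurred in 2 of the 8 genes, Gstp1 and Gsto1, and in 5.04% of all genes. A match is a string of letters and no evidence of binding. Bases outside these windows were not searched, so a gene without a match here may hold the motif elsewhere.

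The 250 bases before the start site are shown for Gstp1, which held the match, in capitals, and for Mgst3, the gene with the largest rise. Those of Gstm3 and Gstm2 are shown as well, because these genes are neighbours on chromosome 2, and Gstm3 rose while Gstm2 did not pass the test. All run 5′ to 3′ on the minus strand of GRCr8, at chr1:210769706-210769955, chr13:82080296-82080545, chr2:198300668-198300917 and chr2:198316918-198317167, in that order.
Gstp1: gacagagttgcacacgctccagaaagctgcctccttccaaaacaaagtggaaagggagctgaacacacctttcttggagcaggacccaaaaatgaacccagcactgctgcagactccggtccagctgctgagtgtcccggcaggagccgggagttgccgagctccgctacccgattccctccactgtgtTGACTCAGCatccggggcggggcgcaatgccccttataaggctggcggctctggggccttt
Mgst3: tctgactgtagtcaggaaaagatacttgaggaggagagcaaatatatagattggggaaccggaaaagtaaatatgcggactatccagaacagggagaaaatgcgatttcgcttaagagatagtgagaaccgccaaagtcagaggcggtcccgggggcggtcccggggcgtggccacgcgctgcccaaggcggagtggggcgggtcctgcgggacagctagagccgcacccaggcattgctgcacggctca
Gstm3: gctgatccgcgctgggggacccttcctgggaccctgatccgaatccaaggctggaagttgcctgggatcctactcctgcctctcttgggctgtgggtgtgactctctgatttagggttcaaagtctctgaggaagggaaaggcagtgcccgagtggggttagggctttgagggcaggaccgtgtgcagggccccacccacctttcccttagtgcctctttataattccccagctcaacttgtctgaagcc
Gstm2: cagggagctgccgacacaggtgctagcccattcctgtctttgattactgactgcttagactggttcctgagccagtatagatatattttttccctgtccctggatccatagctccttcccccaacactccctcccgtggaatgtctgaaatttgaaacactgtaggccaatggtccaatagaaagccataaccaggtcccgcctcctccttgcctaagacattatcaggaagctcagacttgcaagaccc

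Values are log2 expression from RMA, a method that brings all arrays to a common scale. The medians of the arrays lay between 8.21 and 8.35, their lower quartiles between 6.37 and 6.51 and their highest values between 14.6 and 14.9. A gene was called higher or lower where limma's test gave a Benjamini-Hochberg adjusted p below 0.05 over all 31042 probe sets. Values after ± are standard errors of that fit unless marked SD, and differences are DMPT minus vehicle. Vehicle replicate 2 stood apart from the other arrays: its root mean square log2 distance from the mean of its group's other arrays was 0.491, against at most 0.308 for any other array. The count of calls among the 10 genes was 8 with it and 8 without it.

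After DMPT, 8 of the 10 genes were higher, 0 were lower and 2 did not pass. Of all probe sets, 5.37% were higher and 5.74% lower. All 5 DMPT arrays lay above all 5 vehicle arrays for 9 of the 10 genes, which was so for 5.82% of all probe sets, and 5.21% had all DMPT arrays below all vehicle arrays. The median difference of the 10 was 0.46, and that of all probe sets was -0.017. The calls came from the alpha, mu, pi, omega and microsomal classes, and the 1 theta gene did not pass. Only Mgst3 among the 10 changed by at least 2-fold, as did 1.38% of all probe sets in the higher direction. In tissue samples of this kind, more cells of a type and more RNA per cell cannot be told apart.

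**Figure D1:**
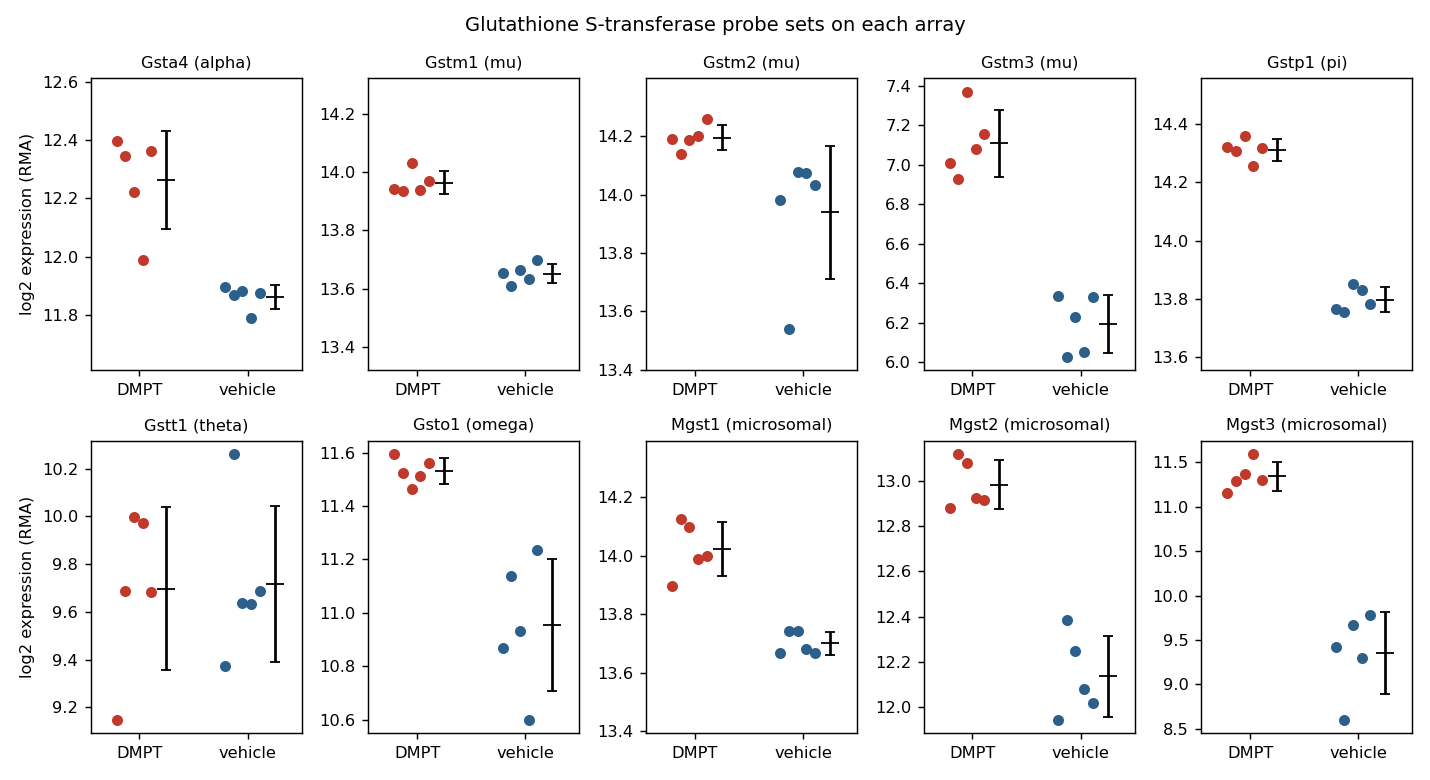
Log2 expression of the 10 glutathione S-transferase genes, 1 panel per gene with its class, for 5 DMPT arrays (red, left) and 5 vehicle arrays (blue, right), with points in replicate order and the mean ± SD beside them. The groups are separate in 9 panels and overlap for Gstt1; in Gstm2 vehicle replicate 2 lies at 13.54, below the other vehicle arrays.

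Gsta4, the alpha-class enzyme that prefers 4-hydroxynonenal and other products of lipid peroxidation, had log2 values of 12.40, 12.35, 12.22, 11.99 and 12.36 on the DMPT arrays, against 11.89, 11.87, 11.88, 11.79 and 11.87 on the vehicle arrays. The groups did not overlap, and the lowest DMPT array, replicate 4, was 0.093 above the highest vehicle array. Gsta4 rose by 0.40 ± 0.094, or 1.32-fold (limma adjusted p = 0.0189). The DMPT arrays were more spread (SD 0.17) than the vehicle arrays (SD 0.041).

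The mu class conjugates a broad range of electrophiles, including epoxides. Gstm1, a major rat mu enzyme, had log2 values of 13.94, 13.94, 14.03, 13.94 and 13.97 after DMPT, against 13.65, 13.61, 13.66, 13.63 and 13.70 with vehicle. The groups were tight and did not overlap. Gstm1 rose by 0.31 ± 0.072, or 1.24-fold (adjusted p = 0.0170). The call was lost without DMPT replicate 3 (0.30, adjusted p = 0.0536) and with the 3′ to 5′ control ratio, given further on, as a covariate (0.31, adjusted p = 0.0523).

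Gstm2, another mu enzyme, had log2 values of 14.19, 14.14, 14.19, 14.20 and 14.26 after DMPT, against 13.98, 13.54, 14.08, 14.07 and 14.03 with vehicle. Every DMPT array was above every vehicle array, by 0.063 at the closest. The difference was 0.26 ± 0.11 and did not pass (adjusted p = 0.175). Vehicle replicate 2 set much of its size: without that array it was 0.15 (adjusted p = 0.165), and the adjusted p over the omission of each array ran from 0.165 to 0.286.

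Gstm3, the third mu gene, was dim. It had log2 values of 7.01, 6.93, 7.37, 7.08 and 7.15 after DMPT, against 6.34, 6.03, 6.23, 6.05 and 6.33 with vehicle, where all 5 arrays were below their lower quartiles. It rose by 0.91 ± 0.11, or 1.88-fold (adjusted p = 0.000366), with a gap of 0.59 between the groups. The size of a difference is less certain so near the background. Omitting any single array left it between 0.85 and 0.96.

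Gstp1, the pi-class enzyme long used in rat liver as a marker of preneoplastic foci, had log2 values of 14.32, 14.31, 14.36, 14.26 and 14.32 after DMPT, against 13.77, 13.75, 13.85, 13.83 and 13.78 with vehicle. The groups were separated by 0.40, more than the range of the DMPT arrays (0.102) or of the vehicle arrays (0.0977). Gstp1 rose by 0.51 ± 0.072, or 1.43-fold (adjusted p = 0.00108), and stayed called without each array in turn (0.50 to 0.53).

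Gstt1, the theta-class enzyme that acts on small halogenated hydrocarbons, had log2 values of 9.15, 9.69, 10.00, 9.97 and 9.68 after DMPT, against 9.38, 10.26, 9.64, 9.63 and 9.69 with vehicle. The groups overlapped, and the highest value was that of vehicle replicate 2. The difference was -0.020 ± 0.19 (adjusted p = 0.967), with a 95% interval from -0.43 to 0.39. The sign of this small difference was positive without DMPT replicate 1 (0.12) and without vehicle replicate 2 (0.12), after centring each array on its median (0.019), with array weights (0.14) and with the 3′ to 5′ control ratio as a covariate (0.19).

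Gsto1, the omega-class enzyme that reduces dehydroascorbate and methylated arsenic, had log2 values of 11.59, 11.53, 11.47, 11.51 and 11.56 after DMPT, against 10.87, 11.14, 10.93, 10.60 and 11.23 with vehicle. The DMPT arrays lay within 0.13 of each other and the vehicle arrays within 0.63. Gsto1 rose by 0.58 ± 0.12, or 1.49-fold (adjusted p = 0.00886).

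Mgst1, an abundant microsomal enzyme with transferase and peroxidase activity, had log2 values of 13.90, 14.13, 14.10, 13.99 and 14.00 after DMPT, against 13.67, 13.74, 13.74, 13.68 and 13.67 with vehicle. The groups did not overlap. It rose by 0.32 ± 0.078, or 1.25-fold (adjusted p = 0.0222), and the call was lost without DMPT replicate 2 (0.30, adjusted p = 0.0570) or DMPT replicate 3 (0.30, adjusted p = 0.0653).

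Mgst2, which can also make leukotriene C4, had log2 values of 12.88, 13.12, 13.08, 12.93 and 12.92 after DMPT, against 11.94, 12.38, 12.25, 12.08 and 12.02 with vehicle. The gap between the groups was 0.50, larger than the spread within either. Mgst2 rose by 0.85 ± 0.10, or 1.80-fold (adjusted p = 0.000458).

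Mgst3, a microsomal enzyme with glutathione peroxidase activity toward lipid hydroperoxides, had the largest difference of the 10. Its log2 values were 11.15, 11.29, 11.37, 11.59 and 11.30 after DMPT, against 9.43, 8.60, 9.67, 9.29 and 9.78 with vehicle. The lowest DMPT array was 1.38 above the highest vehicle array. Mgst3 rose by 1.99 ± 0.19, or 3.96-fold (adjusted p = 0.000104). Vehicle replicate 2 was the lowest array, and without it the rise was 1.80.

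**Figure D2:**
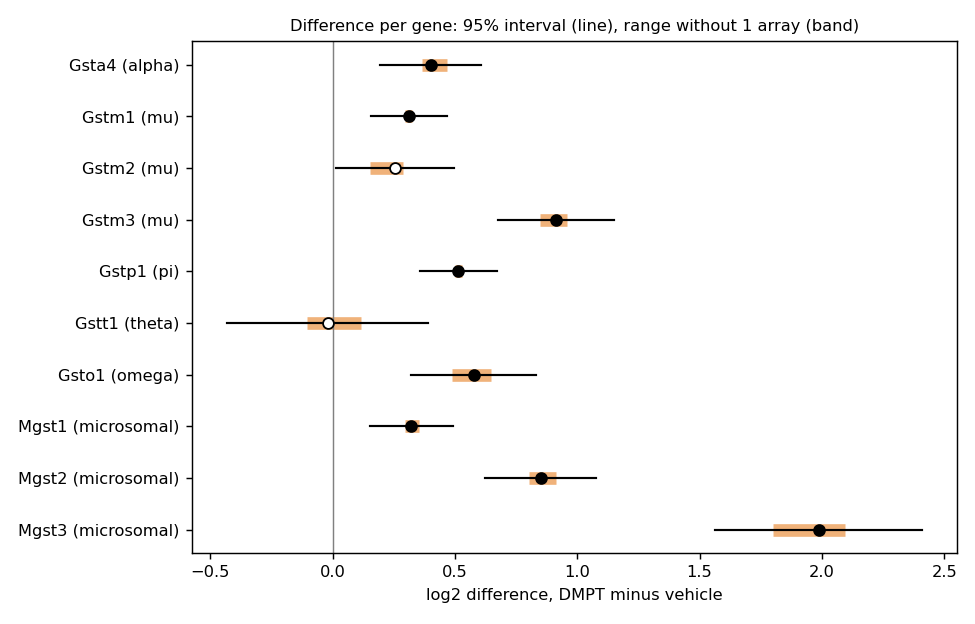
Log2 difference, DMPT minus vehicle, of the 10 genes with its 95% interval (line) and the range found when each array was left out in turn (band); filled points passed the test and open points did not. Mgst3 stands at 1.99, Gstm3 and Mgst2 follow at 0.91 and 0.85, and Gstt1 lies at -0.020.

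The 2-sided exact permutation test over all labelings of the arrays gave p = 0.00794 for each of the 9 separated genes, the smallest value it can give, and p = 0.992 for Gstt1. Gstm1, Gstm2, Gstp1 and Mgst1 averaged 13 or above over the 10 arrays, near the top of the range. Of the 445 probe sets that bright, 6.74% were higher, and their median absolute difference was 0.097, against 0.164 for the other probe sets above the upper quartile. The part that a limited range plays in the size of the differences of these 4 genes was not tested.

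Members of a class were then compared with each other, by asking whether the within-array difference between 2 genes shifted with DMPT. Of 6 pairs, 5 shifted (2-sided exact permutation test, p adjusted over the 6 pairs = 0.00952 each; the smallest unadjusted p is 0.00794). Gstm3 rose by 0.60 ± 0.079 more than Gstm1 and by 0.66 ± 0.11 more than Gstm2 on the log2 scale. Gstm1 minus Gstm2 shifted by 0.057 ± 0.096, with an adjusted exact permutation p of 0.627. Without vehicle replicate 2 that shift was 0.15 and its adjusted exact permutation p was 0.00794. Mgst3 rose by 1.66 ± 0.23 more than Mgst1 and by 1.14 ± 0.28 more than Mgst2, and Mgst2 rose by 0.53 ± 0.066 more than Mgst1. The standard errors here come from the spread of these 5 and 5 within-array differences. Since Gstm1, Gstm2 and Mgst1 are among the bright probe sets and Gstm3 is dim, these shifts compare probe sets at different parts of the range. The mu genes are similar in sequence, and the probes themselves were not used here, so signal shared between mu probe sets was not tested.

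**Figure D3:**
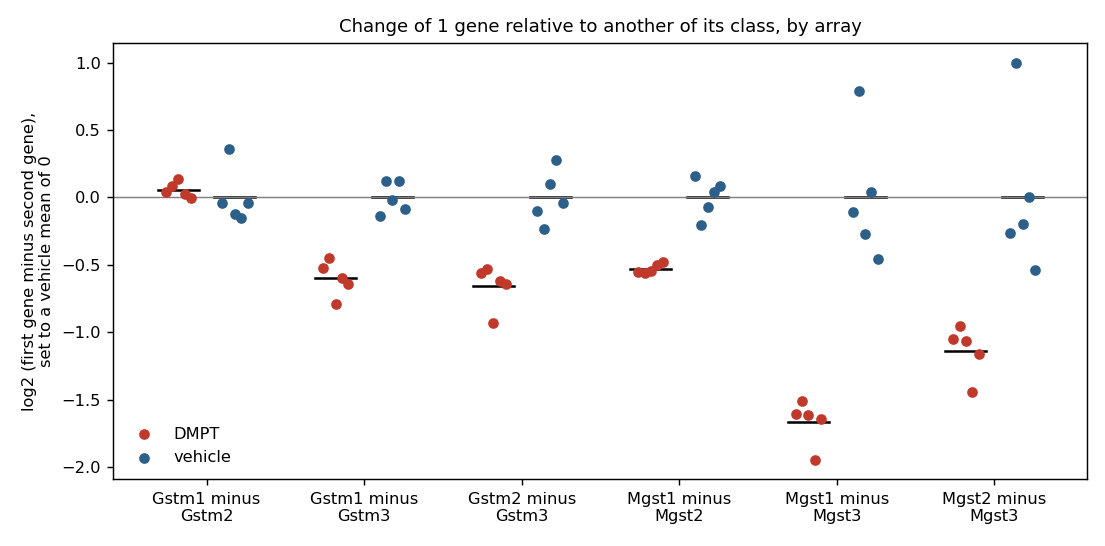
Within-array log2 difference between 2 genes of a class, set to a vehicle mean of 0, for DMPT arrays (red, left) and vehicle arrays (blue, right), with bars at the group means. DMPT arrays lie below all vehicle arrays in 5 pairs and among them for Gstm1 minus Gstm2, where vehicle replicate 2 is the high point.

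Other glutathione transferases and their relatives were counted in the same way. Of 21 measured genes of a list of such relatives, 4 were higher, 1 was lower and 16 did not pass, against 7.13% of all genes higher and 6.77% lower when each gene is read from its brightest probe set. The median difference of the list was 0.0013, and that of all genes was -0.0052. Gsta1, an alpha-class subunit, rose by 1.10 ± 0.12, or 2.15-fold (adjusted p = 0.000248), to a mean of 14.07 ± 0.028 after DMPT against 12.96 ± 0.27 with vehicle (SD, n = 5 each, limma). Gsta3 rose by 0.53 ± 0.13 (adjusted p = 0.0232), Gstt3 by 0.40 ± 0.10 (adjusted p = 0.0272) and Gstm5 by 0.48 ± 0.13 (adjusted p = 0.0347). Gstz1, which isomerises maleylacetoacetate in tyrosine breakdown, fell by 0.49 ± 0.14 (adjusted p = 0.0420) and was named because it was the single lower gene. The calls other than that of Gsta1 were fragile. The higher count was 1 without DMPT replicate 3 or vehicle replicate 1, and 2 when DMPT replicate 2 or 4, or vehicle replicate 4 or 5, was omitted. The call of Gstz1 held only when the array omitted was DMPT replicate 1 or vehicle replicate 3, and the lower count was 2 without vehicle replicate 3. Among genes that did not pass, Hpgds, the sigma-class prostaglandin D synthase, differed by 0.63 ± 0.22 (adjusted p = 0.0983) and Gdap1 by -0.63 ± 0.36. Hpgds was dim, with means of 6.29 after DMPT and 5.66 with vehicle. It passed without vehicle replicate 2 (0.79, adjusted p = 0.0256). It also passed with array weights (0.75, adjusted p = 0.0268) and with the 3′ to 5′ control ratio as a covariate (0.91, adjusted p = 0.0325).

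Several of these genes lie next to each other. In the GRCr8 order on chromosome 2, the measured mu genes run Gstm5, Gstm6l, Gstm7, Gstm3, Gstm2, Gstm1 and Gstm4. Gstm5, Gstm3 and Gstm1 rose, and Gstm6l, Gstm7 and Gstm4 differed by -0.18, -0.13 and -0.24 without passing. On chromosome 20 the measured theta genes run Gstt2, Gstt1 and Gstt3, with differences of -0.071, -0.020 and 0.40, of which only the last passed. Gstt2 was 0.13, without passing, when its probe sets were averaged. The pi gene Gstp1 rose while its neighbour Gstp3, dim at 5.51 after DMPT and 5.45 with vehicle, differed by 0.067. Gsto2, next to Gsto1, differed by -0.56 ± 0.23 (adjusted p = 0.145). Differences between these neighbours beyond the pairs tested above were not tested.

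**Figure D4:**
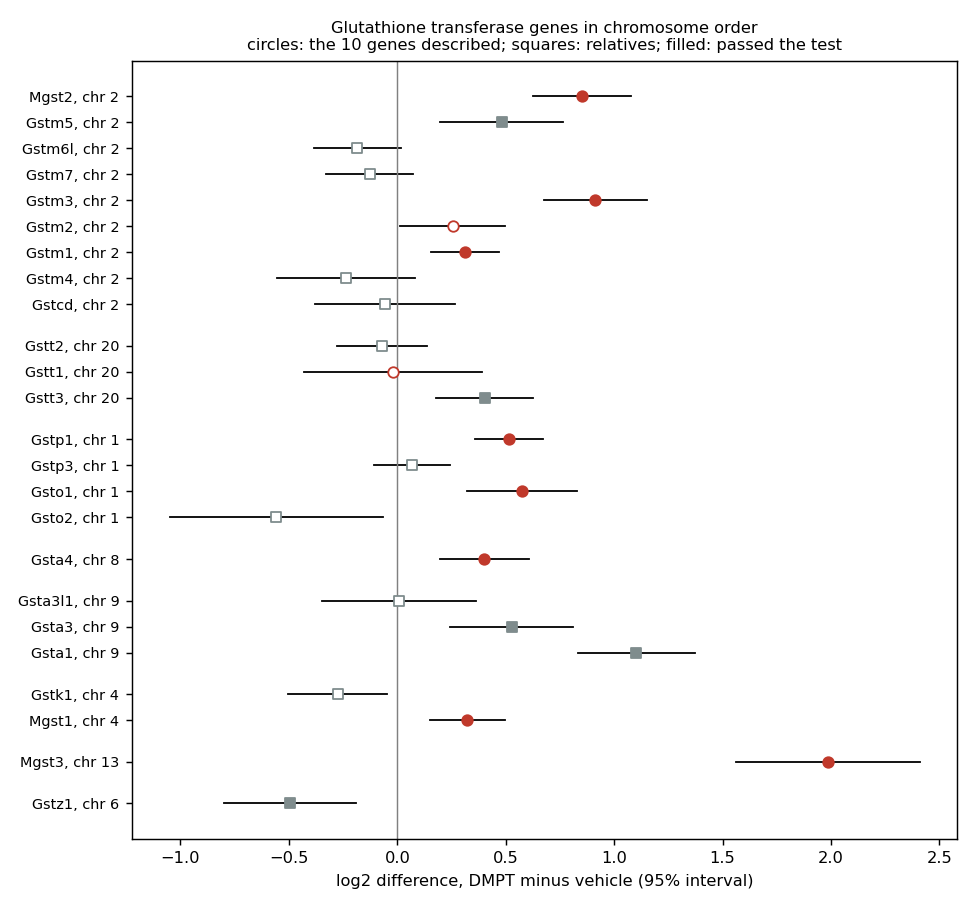
Log2 difference, DMPT minus vehicle, with its 95% interval for measured glutathione transferase genes, grouped by chromosome and ordered along it; circles are the 10 genes described, squares are relatives, and filled symbols passed the test. Along the measured mu genes of chromosome 2 the differences run from 0.48 at Gstm5 to -0.24 at Gstm4, with Gstm3 the highest at 0.91. Mgst2, at 0.85, stands before them.

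Most measured genes of a list for glutathione supply and turnover were higher. Of its 9 measured genes, 6 were higher and 0 lower, and the median difference was 0.59. The shares over all genes were 7.13% higher and 6.77% lower. Chac1, Chac2 and Ggct in this list are genes of glutathione turnover rather than supply. Ggct was among the 6 higher genes (0.36, limma adjusted p = 0.0158). Gsr, the reductase that regenerates glutathione from its disulfide, rose by 1.32 ± 0.17 (adjusted p = 0.000706). The cystine importer gene Slc7a11 rose by 4.12, and the glutamate-cysteine ligase genes Gclm and Gclc rose by 1.84 and 1.42. Oplah and Chac2 differed by -0.29 and 0.15 and did not pass.

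Of 14 measured genes of a list for mercapturate formation and related steps, 2 were higher, 4 lower and 8 did not pass. The median difference was -0.18. Acy1, Acy3 and Aspa in this list encode deacylases, and Kyat1 and Kyat3 beta-lyases, rather than enzymes that form mercapturates. Of all genes, 7.13% were higher and 6.77% lower, so a count of 2 in so short a list is not far from that background. Ggt1, the gamma-glutamyl transferase that opens the breakdown of conjugates outside the cell, rose by 2.79 ± 0.23, or 6.92-fold (adjusted p = 3.98e-05). Its means were 10.88 ± 0.43 after DMPT and 8.08 ± 0.41 with vehicle (SD, 5 arrays each). Acy1, an aminoacylase, rose by 0.55 ± 0.12 (adjusted p = 0.0114). Ggt7, a relative of Ggt1, fell by 0.66 ± 0.15 (adjusted p = 0.0139) and Anpep, the membrane alanyl aminopeptidase, by 0.59 ± 0.14 (adjusted p = 0.0216). Nat8b and Kyat1 were the other lower genes. Kyat3 and Dpep2 differed by -0.64 and 0.36 and did not pass. Kyat3 did pass without vehicle replicate 1 (-0.75, adjusted p = 0.0462) and with the replicate number as a block (-0.64, adjusted p = 0.0200). The lower count was 2 when DMPT replicate 1, 3, 4 or 5 was omitted, and 0 when the 3′ to 5′ control ratio entered the fit.

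Among 6 measured exporters of conjugates, Abcc3 and Abcc4 were higher and 0 were lower (all genes: 7.13% higher, 6.77% lower). Abcc3 rose by 0.89 ± 0.17 (adjusted p = 0.00688) and Abcc4 by 0.48 ± 0.11 (adjusted p = 0.0170), while Abcg2 and Abcc5 differed by 0.44 and -0.16 and did not pass. With the probe sets of a gene averaged, Abcc5 was lower (-0.49, adjusted p = 0.00973) and the lower count was 1. Of 8 glutathione peroxidases and glyoxalases, 1 was higher and 1 lower, each near the share over all genes (7.13% higher, 6.77% lower). Gpx3, a secreted peroxidase, fell by 0.96 ± 0.18 (adjusted p = 0.00503). The call of Gpx2 (0.26, adjusted p = 0.0465) was lost without any array other than vehicle replicate 2. Gpx8 and Gpx4 differed by 0.23 and 0.22 and did not pass, and Gpx4 differed by -0.058 without vehicle replicate 2.

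**Figure D5:**
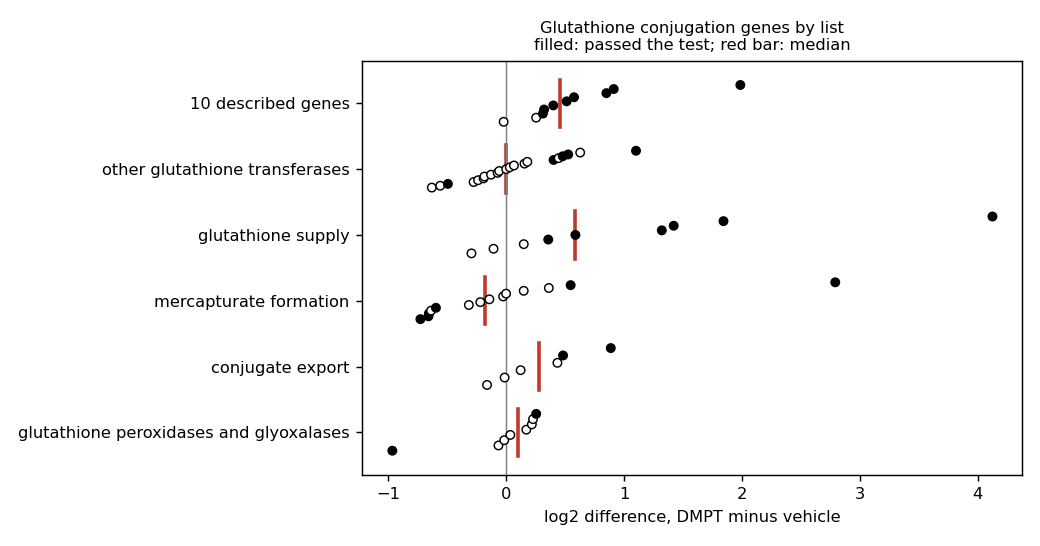
Log2 difference, DMPT minus vehicle, of each gene in the 10 described and in 5 lists of glutathione-related genes, with 1 point per gene, filled where the test was passed, and red bars at the list medians. The median is 0.46 for the 10 genes and 0.0013 for the list of other transferases and relatives. The points farthest right are Slc7a11 at 4.12 and Ggt1 at 2.79.

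Marker genes were read to check the tissue and what else it held. All 8 markers of transitional and luminal epithelium, such as Krt8, Krt18, Epcam and Cdh1, averaged above the upper quartile of probe sets, and 3 of 4 muscle markers averaged below the lower quartile. Markers of other cells also averaged above the upper quartile: 3 of 4 basal, 7 of 11 multiciliated, 4 of 9 gland and secretory and 3 of 6 stromal. So did 2 of 8 leukocyte, 1 of 7 olfactory neuron and 0 of 6 endothelial markers. Of 8 markers listed for the olfactory sustentacular and Bowman gland type, some of which other nasal epithelium also expresses, 5 averaged above the upper quartile and 2, one of them Ugt2a1, below the lower one. Of these 8, 5 were lower and 0 higher, beside 6.77% of all genes lower and 7.13% higher. The same shares stand beside the counts of each list that follows. The sums of these 8 were 15.06 to 15.31 on DMPT arrays against 15.68 to 15.79 on vehicle arrays, as log2 of summed linear signals. Of 11 multiciliated cell genes, 10 were lower, with sums of 13.12 to 14.63 after DMPT and 14.44 to 15.44 with vehicle. Of 9 gland and secretory genes 5 were lower, with sums of 14.22 to 14.79 after DMPT and 14.88 to 15.47 with vehicle. Sums were higher after DMPT for the luminal list (16.12 to 16.19 after DMPT, 15.86 to 16.04 with vehicle), where 2 of 8 genes were higher, and for the basal list (15.14 to 15.34 after DMPT, 14.92 to 15.12 with vehicle), where 2 of 4 were. They were higher for the endothelial list too (10.08 to 11.32 after DMPT, 8.79 to 10.01 with vehicle), where 4 of 6 genes were higher. Leukocyte sums were 13.96 to 14.15 after DMPT and 14.17 to 14.41 with vehicle, with 3 of 8 genes higher and 1 lower. The lower gene, Cd74 (means of 13.49 after DMPT and 13.95 with vehicle), was by far the brightest of the list and weighs most in its sum. The higher genes were C1qa, C1qb and C1qc, and the list's median difference was 0.094. Of 6 stromal genes 0 passed (sums of 13.61 to 14.63 after DMPT, 13.87 to 14.55 with vehicle). Of 7 olfactory neuron genes 1 was higher and 2 were lower (11.50 to 11.82 after DMPT, 11.53 to 11.98 with vehicle), and of 4 muscle genes 0 passed (7.66 to 8.15 after DMPT, 7.69 to 8.04 with vehicle). The counts of 1 in the leukocyte and olfactory neuron lists are near the shares over all genes. The part of the shifts in all these lists in the transferase results was not tested.

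RNA quality was read as the log2 excess of 3′ over 5′ signal, averaged over the array's GAPDH and beta-actin controls. It was 0.873 to 1.30 on DMPT arrays against 1.17 to 1.497 on vehicle arrays, and the groups overlapped (2-sided exact permutation p = 0.143). With it as a covariate 6 of the 10 genes were called, and Gsta4 (0.39, adjusted p = 0.0672) and Gstm1 were the calls lost. The highest ratio, 1.497, was that of vehicle replicate 2, the array that stood apart. The next vehicle array, replicate 1, was at 1.30.

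The genes whose values most resembled those of Mgst3 over the 10 arrays were Txn1, Gabrp and Dapk1, among 14207 genes other than the 10, with r = 0.985, 0.983 and 0.977. Txn1, which encodes thioredoxin, rose by 0.26 ± 0.072 (adjusted p = 0.0375), the GABA receptor subunit gene Gabrp by 1.00 ± 0.12 and the death-associated kinase gene Dapk1 by 1.46 ± 0.16. The call of Txn1 was lost without any array other than vehicle replicate 2. None of the 10 genes fell, so no such set was drawn for a fall (0 lower in limma, and 0 with an unadjusted p below 0.05). By deviations from the group means the nearest genes were Adam32, Dhx36 and Gfus (r = 0.974, 0.953 and 0.953), none of which passed (adjusted p = 0.344, 0.332 and 0.312). Mgst3 was lowest on vehicle replicate 2, at 8.60. Leaving that array out took the differences of Adam32, Dhx36 and Gfus from 0.18, 0.17 and 0.24 to 0.095, 0.096 and 0.11. Correlations without that array were not computed. Adam32 was also dim, with means of 5.15 after DMPT and 4.98 with vehicle. Likeness was ranked by Pearson correlation, which over so few arrays and so many genes is a description. Mgst3 itself separates the groups, so genes picked over all 10 arrays tend to differ between groups by that choice. The rises of Txn1, Gabrp and Dapk1 are therefore no separate result.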

How the data were processed

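Expression was measured in laser-captured nasal transitional epithelium of 5 DMPT and 5 vehicle rats, 1 array each. The log2 values were deposited by the authors after RMA, per the submitters' processing notes; neither labels nor headers name a software version. The labels say that animals shared cages, without saying which, so arrays were treated as independent. Precision is limited by the number of arrays.

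Symbols came from the platform annotation, and all 10 matched the RefSeq table (GRCr8) by Entrez ID. After 57 control probe sets were set aside, 31042 were tested with limma 3.58.1 in R 4.3.3 (lmFit, eBayes, intercept and treatment; Benjamini-Hochberg over all, threshold 0.05). Pairs within a class were tested by exact permutation. A gene in a list was read from its brightest probe set. The fit was tested on simulated data. The authors' ORIOGEN test, named in the series' design text, was not run.

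The genes and lists were chosen with earlier results of these data known. Named were all 10 genes; of each pathway list up to 4 called genes with the smallest p and the 2 largest differences that did not pass; and the 3 genes most like the top riser. Nat8b, Kyat1, Gstz1, Gstm6l, Gstm7, Gstm4, Gstt2, Gstp3 and Gsto2 were named after their values were seen. So were Chac1, Ggct, Acy3, Aspa, Cd74, C1qa, C1qb and C1qc. Alternatives covered filters, probe sets, weights, the variance model, scaling, RNA quality, replicate numbers, omitted arrays and a stricter threshold.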

Additional observations from a re-analysis of the deposited data

Results flagged for a closer look

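Among the 20 sets of 5 values (10 genes, 2 groups), 2 held an array whose gap to its nearest neighbour was over 0.71 of the group's range, Dixon's critical value. Chance flags about 1 in 20 such sets. For Gsta4, vehicle replicate 4 was low at 11.79, with the other vehicle arrays between 11.87 and 11.89. For Gstm2, vehicle replicate 2 was low at 13.54, with the other vehicle arrays between 13.98 and 14.08.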

How the results depend on the processing

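The count of higher genes, by gene and by probe set, was 8 without the dimmest 25% of probe sets, without probe sets of the _s_at, _x_at and _a_at kinds, with array weights, with an intensity trend, and under both rescalings; averaging the probe sets of a gene, a gene-level setting, also gave 8. It was 6 with the 3′ to 5′ control ratio as a covariate and 5 at an adjusted p below 0.01, where fewer calls follow by construction. Leaving out each array gave 6 to 8. The lower count was 0 throughout. Replicate numbers are shared between groups but mark separate animals; deviations of same-numbered arrays correlated at -0.067 to 0.234, and 2 of 5 DMPT arrays correlated best with their own number. With the replicate number as a block 6 genes were higher, and the calls lost were Gstm1 (0.31, adjusted p = 0.0624) and Mgst1 (0.32, adjusted p = 0.0586). The count of class pairs that shifted was 5 after quantile normalization, 5 to 6 without each array, and 0 with the replicate block. In that block test 5 pairs of numbers cannot reach the threshold (adjusted exact p = 0.075). Centring the arrays and the other probe set choices also gave 5, but these settings cannot change the within-array differences of these genes. The exact permutation test per probe set cannot pass after adjustment (smallest adjusted p = 0.0719). The motif count was 1 with a longer form of the motif as well. Fewer higher relatives were called after quantile normalization (2). Abcc5 passed when its probe sets were averaged (-0.49, adjusted p = 0.00973). The causes of these changes were not tested. Signal near the background limits Gstm3 and Gstp3, and also Hpgds, Gdap1, Gstm6l, Gsta3l1, Dpep2 and Adam32.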

Other observations

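The arrays of a group did not rank alike over the 10 genes. Among vehicle arrays, replicate 2 had the lowest value for 5 genes (Gstm1, Gstm2, Gstm3, Gstp1 and Mgst3) and the highest for 3 (Gstt1, Mgst1 and Mgst2). Among DMPT arrays, replicate 1 was lowest for 4 genes (Gstt1, Mgst1, Mgst2 and Mgst3) and highest for 2 (Gsta4 and Gsto1), and replicate 3 was highest for 4 (Gstm1, Gstm3, Gstp1 and Gstt1). Gsta3l1, a relative of Gsta3 that was in none of the lists, was dim, at 5.51 after DMPT and 5.50 with vehicle. Its difference was 0.0081 ± 0.16 (adjusted p = 0.984).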
